A study of Homo sapiens with 8 samples.

Results

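LARP6 crosslinks near the 5′ ends of genes outside the fibrillar collagens were examined in an eCLIP experiment on human hepatic stellate cells. A cluster is a stretch of RNA reads that the authors tested for enrichment over input. A cluster or listed region was taken as near a 5′ end when its midpoint lay inside a protein-coding gene of GRCh38, on the strand of that gene, and at most 500 nt from the outermost annotated 5′ end. COL1A1, COL1A2, COL3A1, COL5A1 and COL5A2 were left out. The rule used position only, and it took 17481 of the 178461 regions in 6 tables. Of the tested clusters, it took 3534 of 51273 in control replicate 1, 3937 of 39880 in control replicate 2, 3923 of 31137 in TGFβ1 replicate 1 and 5951 of 54536 in TGFβ1 replicate 2. It also took 47 of the 627 regions that the authors listed from both control replicates and 89 of the 1008 listed from both TGFβ1 replicates.

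eCLIP crosslinks protein to RNA with ultraviolet light, trims the RNA, pulls the protein down with an antibody, here against LARP6, and sequences the bound fragments beside a size-matched input from the same gel range. All cells were wild type and grown in DMEM with serum, and each condition had 2 immunoprecipitated and 2 input libraries. The treated cells received TGFβ1 at 5 ng/ml, and the labels give the control cells both as untreated and as DMSO, so a vehicle may or may not have been added. The labels call the cells a cell line named HSCs and do not give its origin. Whether the replicates are separate cultures is not stated, and p-values then measure only the spread between these libraries, which could be technical. Of 11 stellate cell marker genes that could be searched, 9 carried clusters in every library, with RGS5 and LRAT at 0, while none of 6 hepatocyte markers carried any. A single macrophage marker, CD68, carried 2 to 4 clusters per library, and the endothelial marker KDR carried 2 in TGFβ1 replicate 2 only. Of 5 cholangiocyte markers, 3 or 4 carried clusters, 5 and 7 in all in control and 16 and 28 with TGFβ1. Among them KRT7 had 1 and 2 in control and 13 and 17 with TGFβ1. The part of these markers in the results was not tested. Because the tables hold no read counts, the depth behind each value is unknown.

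LARP6 belongs to the La-related RNA-binding proteins. It is known for binding type I and type III collagen mRNAs at a stem-loop around the start codon and is thought to guide their translation at the endoplasmic reticulum. TGFβ1 is the classical cytokine that turns stellate cells into matrix-producing myofibroblasts. The 5′ end of an mRNA carries the cap and the untranslated leader on which ribosomes assemble, so a protein bound there can meet the initiation machinery.

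The sequences below show bases in or at the edge of listed regions of 12 genes, without the distance from the gene start. They are given because these genes carried the highest listed folds among those with reference sequence. The stretch shown is not always from the highest region of the gene. Each line is 30 bases of the reference on the strand of the gene, 5′ to 3′, from the RefSeq promoter table of GRCh38.p14. Capitals mark the bases inside 1 listed region of the gene, from the control list for G0S2 and from the TGFβ1 list for the other genes. Lower case marks bases outside that region, which can lie in another listed region, as the 3′ end of the GFPT1 line does.
LARP6, chr15:70854039-70854068, minus strand: GGCTCGGCCCGGGCCCAagacggcggtgca
PCSK1N, chrX:48835561-48835590, minus strand: cggcactgcGCACTTGCCAGCCAGTCCGCC
GFPT1, chr2:69387199-69387228, minus strand: agaaggctGTCGTTGCCTTGGCCgtcgcat
YWHAE, chr17:1400173-1400202, minus strand: ttgctgcccggACGCGGAGCGAGAGGCTGA
CCDC85B, chr11:65890680-65890709, plus strand: TGCCGCGTGCGGAGCCGGAGCCCGAGCCTG
ROMO1, chr20:35699425-35699454, plus strand: aGCTGAGCGACCCAGCCCGCGAGCGAGGTG
SORT1, chr1:109397869-109397898, minus strand: GCGGCGATGGAGCGGCCCTGGGGAGCTGCG
TAP1, chr6:32853655-32853684, minus strand: GCGGAGAGTCCCAGGCCCGGCCGGGACCGG
SC5D, chr11:121292764-121292793, plus strand: CTAGGACAGTTTGCAGAGCAGTGGCGTGCG
G0S2, chr1:209675432-209675461, plus strand: ACTGGGAGAGCTGCAGCTGCCGAGAGGAGG
FEZ1, chr11:125496216-125496245, minus strand: CGCTGGCTGGCTGGCTGGCTGGCTCTCCGC
SCP2, chr1:52927296-52927325, plus strand: GCGGCCCTGGCTTCGGGCTTCAGGGAGCTC
Of the 51 genes with a listed region, 24 had a stretch of this length in the table, and the G and C content of these stretches had a median of 78.3% and ran from 53.3 to 90.0%. These stretches have no matched background here, so no preference can be read from this value. The first 50 nt of genes tested but not enriched had a median of 70%. CCNI and NEU1, which carried 2 of the 3 highest folds, are named only.

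Enrichment near 5′ ends was rare among the tested clusters, and few of the tested genes carried any. A cluster was called enriched when the log2 fold over input and the −log10 p that the authors gave were both at least 3. In control replicate 1, 47 clusters near 5′ ends were enriched (1.33%, 95% Wilson interval 1.00 to 1.76), against 1.21% of all tested clusters of that library. Control replicate 2 had 55 (1.40%, 1.08 to 1.81) against 2.09%. TGFβ1 replicate 1 had 66 (1.68%, 1.33 to 2.14) against 2.69%, and TGFβ1 replicate 2 had 162 (2.72%, 2.34 to 3.17) against 3.64%. The share near 5′ ends was thus above that of the whole library in control replicate 1 and below it in the other 3 libraries. These intervals cover counting error only.

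The enriched share in the remainder of the same genes, past 500 nt, was 0.857% in control replicate 1, 1.83% in control replicate 2, 2.39% in TGFβ1 replicate 1 and 3.39% in TGFβ1 replicate 2. The share near the 5′ end differed from it by 0.473, -0.433, -0.709 and -0.671 percentage points in these libraries. The mean difference was -0.335 points (exact two-sided sign-flip permutation over 4 libraries, p = 0.375). The smallest p that 4 libraries can give here is 0.125, so no difference is claimed. Between conditions, the enriched share near 5′ ends was 1.36% ± 0.05 (SD, n = 2) in control and 2.20% ± 0.74 (SD, n = 2) with TGFβ1. The difference of 0.839 points had an exact two-sided permutation p of 0.333, which is the smallest that 2 against 2 libraries can give. It was 0.319 points without TGFβ1 replicate 2 and 1.36 points without TGFβ1 replicate 1. Over all tested clusters, the corresponding shares were 1.65% ± 0.63 and 3.16% ± 0.67 (SD, n = 2 each). A difference in the same direction was thus present over all tested clusters.

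**Figure D1:**
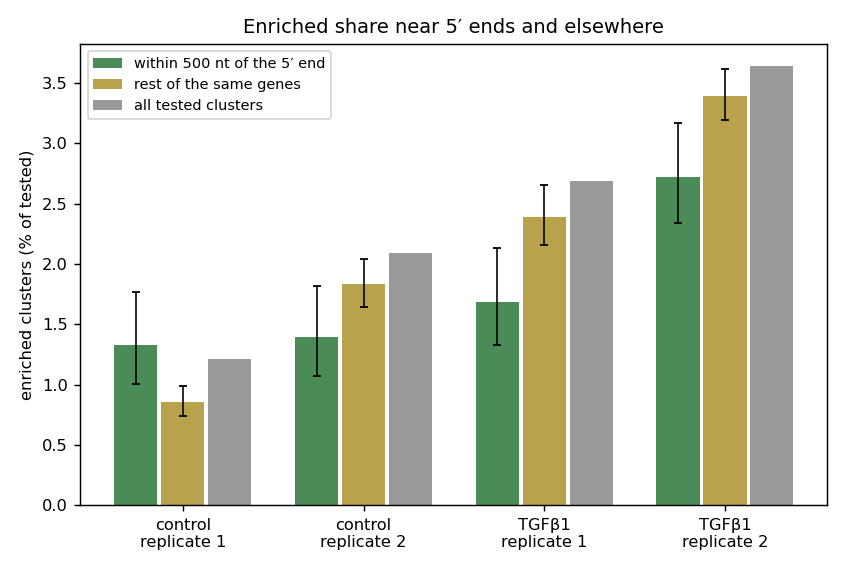
Percent of tested clusters called enriched in each of the 4 libraries, for clusters within 500 nt of a 5′ end (green), for the remainder of the same genes (ochre) and for all tested clusters (grey), with 95% Wilson intervals on the green and ochre bars. The green bar is above the ochre one in control replicate 1 (1.33 against 0.857%) and below it in the other 3 libraries.

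Within the 500 nt, the enriched share was highest in the stretch closest to the 5′ end in all 4 libraries. From 0 to 99 nt it was 1.80% of 1054 clusters in control replicate 1, 1.94% of 1239 in control replicate 2, 2.19% of 1324 in TGFβ1 replicate 1 and 3.62% of 2070 in TGFβ1 replicate 2. From 400 to 500 nt it was 0.978, 0.983, 0.890 and 1.16%. The counting intervals of neighbouring stretches overlapped, and no test was run on this order. At the edge of the window, 1, 2, 0 and 3 clusters were enriched from 451 to 500 nt (0.510, 1.03, 0 and 1.23% of those tested). From 501 to 550 nt, just outside, 5, 5, 2 and 4 were (3.01, 3.21, 1.30 and 1.82%). The share just outside was above that from 400 to 500 nt in each library, and in control also above that from 0 to 99 nt. Distances are along the genome, so an intron counts in them, and the gene table used here gives no exons with which to place a region in an exon or an untranslated leader.

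**Figure D2:**
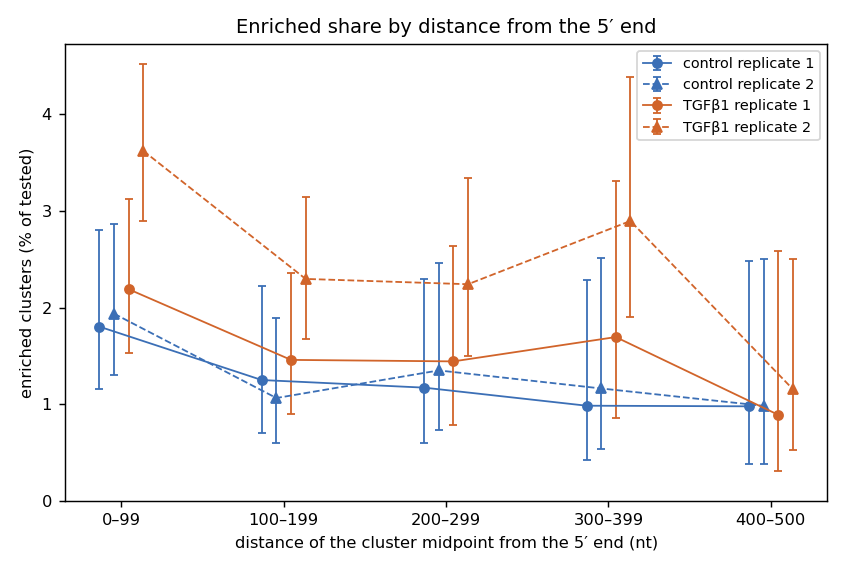
Percent of tested clusters called enriched (y axis) by distance of the cluster midpoint from the 5′ end in stretches of 100 nt (x axis), for each library, with 95% Wilson intervals. The stretch from 0 to 99 nt is the highest in each library, from 1.80% in control replicate 1 to 3.62% in TGFβ1 replicate 2.

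At least 1 enriched cluster was found near the 5′ end of 26 genes in control replicate 1 (1.03% of genes with a tested one), 34 in control replicate 2 (1.24%), 46 in TGFβ1 replicate 1 (1.68%) and 109 in TGFβ1 replicate 2 (2.86%). In any library these were 121 of 4817 genes (2.51%). Most enriched clusters fell in the 51 genes that also carried a listed region, namely 45 of 47 and 47 of 55 in control, 62 of 66 in TGFβ1 replicate 1 and 92 of 162 in TGFβ1 replicate 2. Because the lists were made from these same libraries, this follows largely from how the 51 genes were chosen. CCNI alone held 7, 8, 6 and 8 of them. Of 70 enriched genes with no listed region, 57 were enriched in TGFβ1 replicate 2 only, 2 in control replicate 1 only, 2 in control replicate 2 only and 3 in TGFβ1 replicate 1 only. The remaining 6 were enriched in 2 libraries and were AGRN, DPM1, PRPF8, PSAP, WDR1 and ZRANB1.

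The authors' control list held regions near the 5′ end of 24 genes (0.498% of the 4817) and their TGFβ1 list of 50 genes (1.04%). In both lists were CCNI, PCSK1N, NEU1, GFPT1, LARP6, YWHAE, CCDC85B, ROMO1, MRPL43, SORT1, TAP1, SC5D, REEP3, PPP1R12C, CLTA, CDK5R2, G0S2, RHEB, FEZ1, TNKS1BP1, GPC1, PLOD3 and SPTBN1, which makes 23. WDR6 was in the control list only. The 27 genes in the TGFβ1 list only were B4GALT5, PIH1D1, SCP2, SYAP1, ATP11B, SPPL3, ZBTB21, FIBP, CSNK2B, MAP2, SRM, TRIB3, NME3, ODC1, ASPH, STAM2, RRBP1, GAS6, UBA2, VGLL3, MAP4K4, UQCR11, SLC16A1, MICAL2, IGFBP7, RHOQ and POLDIP2. All 51 had a tested cluster near the 5′ end in each of the 4 libraries. In 20 of them, all in both lists, a cluster near the 5′ end was enriched in every library. That cluster was not always at the listed region, as in PPP1R12C. Of the 47 control regions, 46 overlapped a TGFβ1 region by at least 1 nt (97.9%, 95% Wilson interval 88.9 to 99.6), while 55 of the 89 TGFβ1 regions overlapped a control region (61.8%, 51.4 to 71.2). These intervals treat neighbouring regions as independent, although several can belong to 1 site, as the 8 control regions of CCNI do. The same shares over all listed regions are not given here, so these values cannot be called particular to 5′ ends. With the enriched clusters of TGFβ1 replicate 2 alone in place of the TGFβ1 list, that is without TGFβ1 replicate 1, there were 162 regions in 109 genes and 34.0% overlapped a control region. Of the 34 regions of the TGFβ1 list that overlapped no control region, 29 overlapped no enriched control cluster, and all 29 overlapped a tested one.

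The rule holds the midpoint of each listed region to the 500 nt window. The median length of these regions was 30 nt in the control list and 52 nt in the TGFβ1 list. Tested clusters near 5′ ends had median lengths of 60 and 58 nt in the control libraries and 64 and 64 nt in the TGFβ1 libraries. The median distance of the listed regions from the 5′ end was 158 nt in control and 111 nt with TGFβ1. From 0 to 99 nt lay 19 of 47 control and 39 of 89 TGFβ1 regions, beside 1054 of 3534 and 1239 of 3937 tested clusters in the control libraries and 1324 of 3923 and 2070 of 5951 in the TGFβ1 libraries. When regions at most 20 nt apart were joined, each control gene had a single site (24 sites, median span 96 nt), and the TGFβ1 list gave 52 sites with a median span of 106 nt, with ROMO1 and ASPH carrying a pair each. No region overlapped an annotated small RNA gene. For comparison, the 5 fibrillar collagen genes carried 20 control and 21 TGFβ1 regions in the same window.

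**Figure D3:**
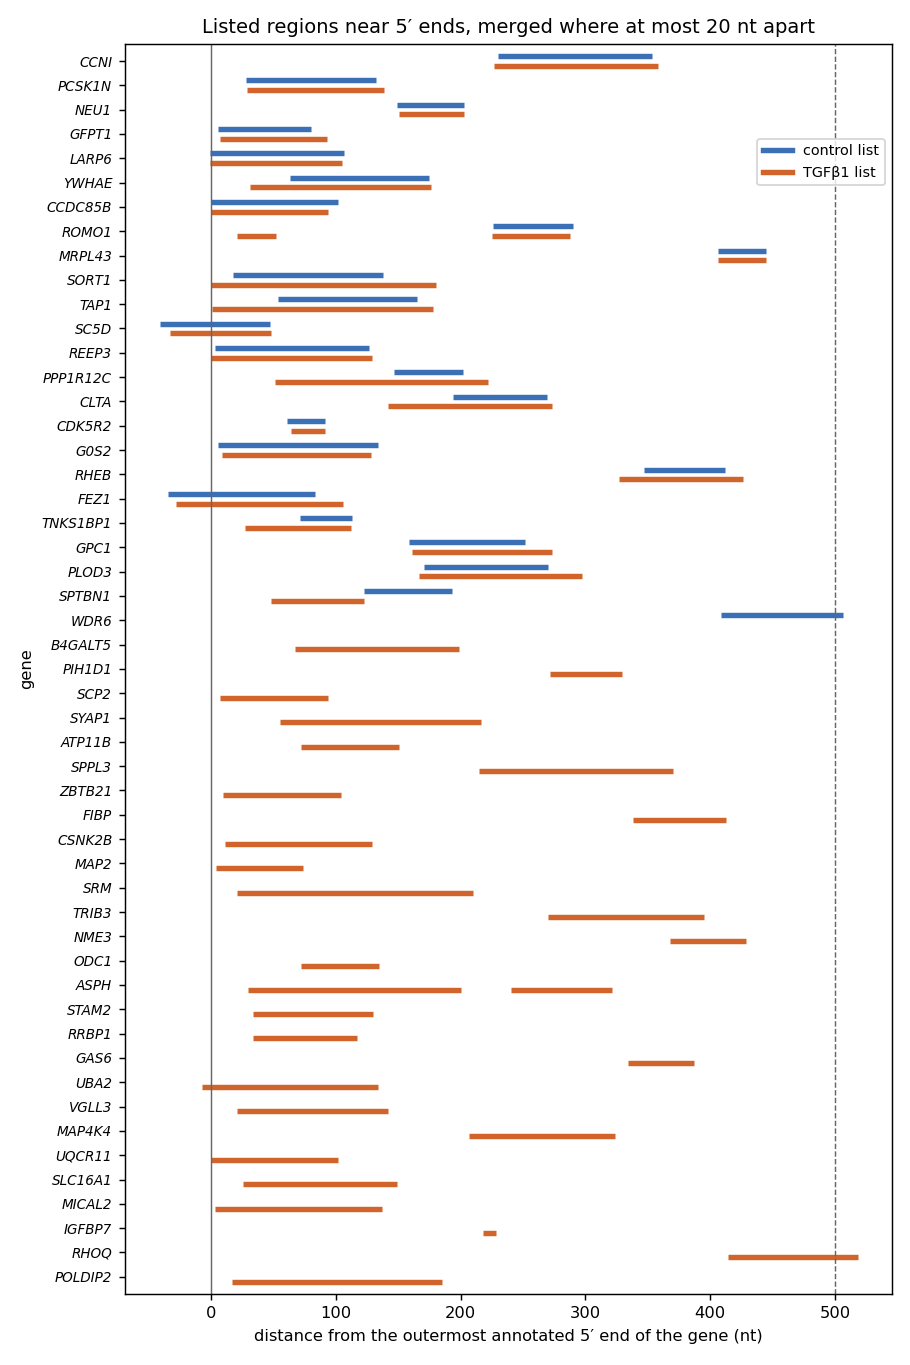
Position of each listed region (x axis, nt from the outermost annotated 5′ end; the dashed line is the 500 nt limit) for the 51 genes (y axis), control list in blue and TGFβ1 list in orange, regions at most 20 nt apart joined. In most genes of both lists the control and TGFβ1 sites overlie each other, as in CCNI at 230 to 353 and 227 to 358 nt, while the SPTBN1 sites touch only at 123 nt.

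The level of the folds itself differed between libraries, which bears on every comparison of conditions below. The value of a gene is here the highest log2 fold among its clusters near the 5′ end in a library. The position of that cluster can differ between libraries. Among 1413 genes tested near the 5′ end in all 4 libraries, the median difference between the TGFβ1 and control means was 0.56 on the log2 scale, so a difference of this size is that of a typical gene. Relative to that median, the difference was 1.71 for GFPT1, 1.36 for SC5D, 0.91 for PCSK1N, 0.24 for SORT1, -0.21 for LARP6, -0.44 for CCNI, -0.65 for NEU1 and -1.37 for CLTA. LARP6 and CCNI thus changed sign with this centring. Both TGFβ1 values exceeded both control values in 523 of the 1413 genes (37.0%), and both were below in 77 (5.45%). In the 23 genes of both lists this held for 12 and 1. With the library medians of the 1413 genes subtracted, the counts were 221 (15.6%) and 269 (19.0%) overall and 9 and 4 of the 23. CDK5R2, FEZ1 and LARP6 were the 3 genes of both lists that no longer separated, and CCDC85B, GFPT1, MRPL43, PCSK1N, PPP1R12C, REEP3, ROMO1, SC5D and SORT1 still did. The 4 with both TGFβ1 values below both control values were CCNI, CLTA, GPC1 and SPTBN1. In control replicates 1 and 2, 28.8 and 25.1% of all tested clusters shared a single value, the library median, compared with 2.88 and 0.110% with TGFβ1. The part of this repeated value in the shift was not tested.

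**Figure D4:**
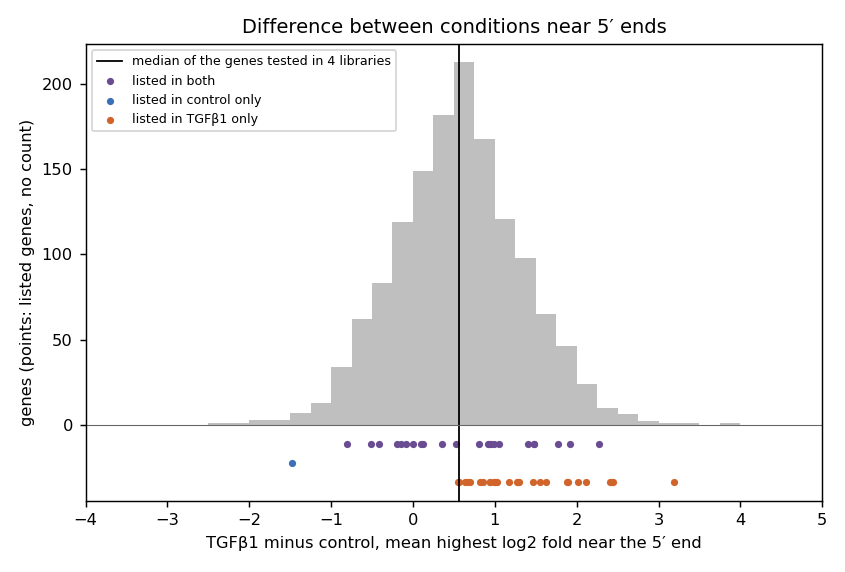
Difference between the TGFβ1 and control means of the highest log2 fold near the 5′ end (x axis) for 1413 genes tested in 4 libraries (grey histogram, y axis in genes), with the genes of the lists as points below 0. The vertical line is the median of 0.56; the 23 genes of both lists lie on both sides of it, from CLTA at -0.81 to GFPT1 at 2.27.

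The gene of LARP6 itself carried a strong site in its first stretch. LARP6 was also the protein pulled down. Its value was 6.08 in control replicate 1, 5.77 in control replicate 2, 6.21 in TGFβ1 replicate 1 and 6.36 in TGFβ1 replicate 2. Values with TGFβ1 lay above those in control as deposited, but by less than the median gene, with means of 6.28 ± 0.10 and 5.93 ± 0.22 (SD, n = 2 each). The control site ran over chr15:70854050-70854158 and the TGFβ1 site over chr15:70854052-70854158 on the minus strand, from 1 nt before the annotated end to 107 and 105 nt after it. Past 500 nt, the highest fold in LARP6 was 1.38, 2.26, 1.94 and 4.25, below the site near the 5′ end in each library. All 12 tested clusters of this window were enriched. The labels name the antibody but no control pulldown with another antibody, and none was analysed here.

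CCNI, which encodes cyclin I, an atypical cyclin known from cells that no longer divide, had the highest fold of all. Its values were 8.73 and 8.96 in control and 8.77 and 9.16 with TGFβ1. Both conditions overlapped, at 8.85 ± 0.16 and 8.96 ± 0.27 (SD, n = 2 each), and the −log10 p was at 400, the top of the authors' scale, in each library. The site covered chr4:77075636-77075759 in control and chr4:77075631-77075762 with TGFβ1, on the minus strand. It began 227 nt or more from the 5′ end, farther in than the LARP6 site. In the remainder of the gene the highest folds were 3.41, 4.35, 2.43 and 3.88. Of 9 cyclins with a tested cluster near the 5′ end, CCNI was the 1 that had an enriched cluster, beside 2.51% of all genes.

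NEU1 encodes neuraminidase 1, the sialidase of the lysosome, and its values were 8.02 and 7.23 in control and 7.32 and 7.75 with TGFβ1. The conditions overlapped, with means of 7.63 ± 0.56 and 7.54 ± 0.31 (SD, n = 2 each). NEU1 was not enriched near its 5′ end alone: past 500 nt its highest folds were 8.23, 7.78, 7.73 and 7.97, above the window in each library, and 3 of its 5 regions in each list lay there. PCSK1N encodes proSAAS, a secreted inhibitor of the prohormone convertase PCSK1. It had values of 6.55 and 6.26 in control and 7.17 and 8.60 with TGFβ1. Both TGFβ1 libraries were above both control libraries, and the second was far above the first (7.88 ± 1.01 against 6.40 ± 0.20, SD, n = 2 each). SORT1 encodes sortilin, which sorts proteins from the Golgi to lysosomes, and had 4.86 and 4.77 in control against 5.63 and 5.61 with TGFβ1. Its replicates lay close together, at 4.81 ± 0.06 and 5.62 ± 0.01 (SD, n = 2 each), and the groups did not overlap.

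TAP1 encodes a subunit of the transporter that loads peptides for MHC class I, and its values of 4.55, 3.72, 4.06 and 6.18 overlapped between conditions. CLTA encodes a clathrin light chain of coated vesicles. Its values were 4.17 and 5.12 in control and 4.08 and 3.60 with TGFβ1, so that both TGFβ1 libraries were below both control libraries, by 0.09 at the closest. This direction depended on taking the highest cluster. With the mean of its clusters instead, CLTA was at 3.01 in control and 3.30 with TGFβ1. PLOD3, the lysyl hydroxylase that also glycosylates hydroxylysine in collagen, was 1 of 24 tested collagen-processing genes with a region in each list, beside 0.498% of all genes in the control list and 1.04% in the TGFβ1 list. It reached 3.75 and 2.75 in control and 2.79 and 3.72 with TGFβ1, and it was enriched in 1 library of each condition. GPC1, a cell surface heparan sulfate proteoglycan, had 3.58, 3.81, 2.89 and 4.20 and was higher past 500 nt in 3 of 4 libraries, up to 5.61 in TGFβ1 replicate 2. REEP3, which shapes the endoplasmic reticulum, had 3.88 and 4.22 in control and 4.94 and 5.07 with TGFβ1, without overlap.

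Genes of metabolism showed both steady and separated values. GFPT1 encodes the rate-limiting enzyme of the hexosamine pathway, which supplies the sugars for glycosylation. Its values were 4.20 and 4.12 in control and 5.24 and 7.62 with TGFβ1. The separation was wide but so was the spread with TGFβ1 (4.16 ± 0.06 against 6.43 ± 1.68, SD, n = 2 each). The site ran from 6 to 80 nt in control and from 7 to 93 nt with TGFβ1, and no cluster past 500 nt was enriched in any library. SC5D, a desaturase late in cholesterol synthesis, had 3.49 and 3.07 in control and 4.90 and 5.50 with TGFβ1, the widest gap between groups among the 23 genes of both lists (1.41). Its regions began 41 and 33 nt before the annotated 5′ end of the gene. G0S2, an inhibitor of the lipase ATGL on lipid droplets, had 5.10, 4.35, 4.20 and 4.85, and the conditions overlapped.

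Of the mitochondrial genes, ROMO1, a small inner membrane protein, had 3.55 and 4.62 in control and 5.62 and 5.35 with TGFβ1. It carried a site from 225 to 290 nt in both lists and a further one from 21 to 52 nt in the TGFβ1 list only, which is the stretch printed above. MRPL43, a protein of the large mitochondrial ribosomal subunit, had 4.41 and 4.26 against 5.04 and 6.59, without overlap. Its site was the same 40 nt in both lists, chr10:100987052-100987091 on the minus strand.

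Among the genes of signalling and the cytoskeleton, YWHAE, the phosphoprotein-binding adaptor 14-3-3 epsilon, had 3.98 and 5.44 in control and 5.27 and 7.70 with TGFβ1, and the groups overlapped. CCDC85B, a small coiled-coil repressor, had 4.95 and 5.59 against 6.04 and 6.36, without overlap. RHEB, the GTPase that activates mTORC1, had 4.38, 4.14, 4.01 and 4.71, with the conditions overlapping. PPP1R12C, a targeting subunit of myosin phosphatase, was higher with TGFβ1 (3.27 and 3.39 against 4.46 and 4.04), but its clusters past 500 nt were higher still in each library, from 5.17 to 7.10. Its value in control replicate 2 came from a cluster at 324 nt, outside its listed sites. At the listed regions of PPP1R12C that library reached 2.74 and was not enriched. CDK5R2, an activator of CDK5 known from neurons, had 3.90 and 3.74 against 4.20 and 5.53. FEZ1, a kinesin adaptor known from axons, had 3.65 and 4.07 against 4.14 and 4.63, also without overlap. SPTBN1, a spectrin of the membrane skeleton, had 3.55, 4.07, 3.56 and 3.02, and TNKS1BP1, a binding partner of tankyrase 1, had 3.49, 4.99, 3.40 and 4.25. In both, the conditions overlapped as deposited. With the library medians subtracted, both TGFβ1 values of SPTBN1 were below both control values.

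**Figure D5:**
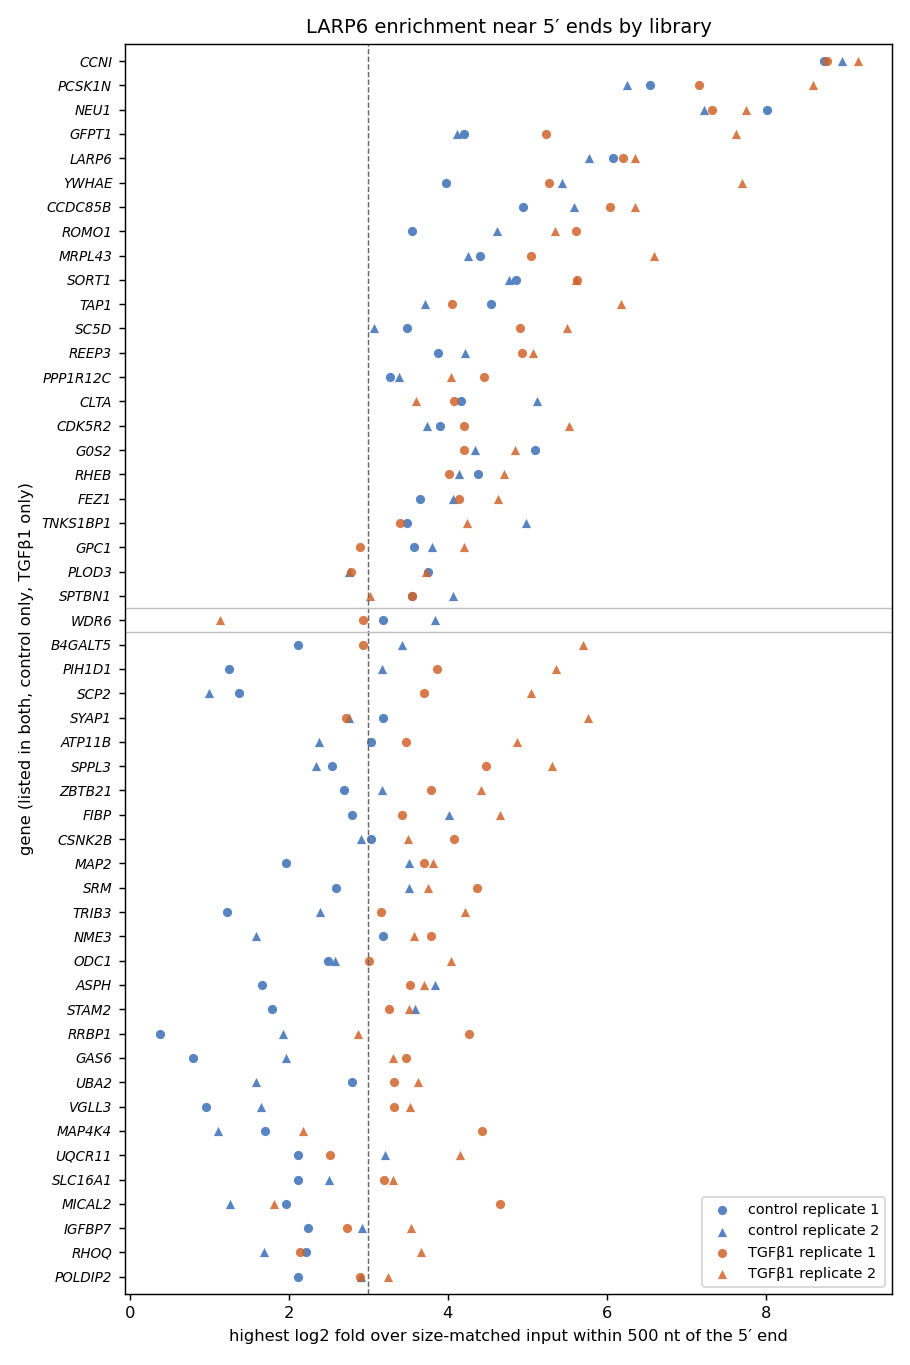
Highest log2 fold over input near the 5′ end (x axis) for the 51 genes with a listed region (y axis; genes of both lists on top, then WDR6, then genes of the TGFβ1 list only), 1 point per library; the dashed line is the fold limit of 3. CCNI is the highest in each library, from 8.73 to 9.16, and its points overlap between conditions, whereas those of SC5D and SORT1 do not.

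The genes of the TGFβ1 list only were chosen by high TGFβ1 values, so the direction of their difference follows from the choice and their values are a description. As deposited, both TGFβ1 values were above both control values in 17 of the 27, and with the library medians of the 1413 genes subtracted in 9, namely GAS6, PIH1D1, RRBP1, SCP2, SLC16A1, SPPL3, TRIB3, VGLL3 and ZBTB21. SCP2, the sterol carrier protein 2, had 1.38 and 1.00 in control and 3.71 and 5.05 with TGFβ1. SPPL3, an intramembrane protease of the Golgi that releases glycosyltransferases, had 2.55 and 2.35 against 4.48 and 5.31. PIH1D1, a subunit of the R2TP cochaperone, had 1.25 and 3.17 against 3.87 and 5.37. The groups of these 3 genes did not overlap, and SCP2 had the widest of these 27 genes (2.33 between the lowest TGFβ1 and the highest control value). B4GALT5, which makes lactosylceramide, overlapped (2.12 and 3.43 against 2.94 and 5.70). ATP11B, a subunit of a phospholipid flippase, had 3.04 and 2.38 against 3.48 and 4.87, and ZBTB21, a zinc finger transcription factor, had 2.70 and 3.17 against 3.79 and 4.42. None of these 6 genes had a control cluster that passed both limits, although B4GALT5, ATP11B, PIH1D1 and ZBTB21 had a control fold above 3 at a −log10 p below 3.

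Several other genes of the TGFβ1 list have a place in stellate cell biology. GAS6, the ligand of the AXL and MERTK receptors, had 0.79 and 1.96 in control and 3.48 and 3.31 with TGFβ1. The listed region of GAS6 ran from 334 to 387 nt, but its value in control replicate 1 came from a cluster at 451 nt. No tested cluster of that library overlapped the region. VGLL3, a cofactor of TEAD transcription factors, had 0.96 and 1.65 against 3.32 and 3.53. Its listed region ran from 21 to 142 nt, whereas the value in control replicate 1 came from a cluster at 289 nt. Both genes separated by more than 1, yet GAS6 and VGLL3 had folds of up to 3.94 and 4.41 past 500 nt. IGFBP7, a secreted binding protein of the insulin-like growth factor family, had 2.25 and 2.92 against 2.74 and 3.54, and the conditions overlapped. RRBP1, the ribosome-binding protein of the rough endoplasmic reticulum, had 0.38 and 1.92 against 4.26 and 2.88 near the 5′ end, whereas its highest fold past 500 nt was 6.25 and 8 of its 9 TGFβ1 regions lay there. ODC1 and SRM, the enzymes that make putrescine and spermidine, were both listed. ODC1 had 2.49 and 2.58 against 3.01 and 4.05, while SRM had 2.60 and 3.51 against 4.37 and 3.75 and higher folds past 500 nt, from 4.53 to 7.74.

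The highest value of the remaining genes of the TGFβ1 list ranged from 3.26 in POLDIP2 to 5.77 in SYAP1. SYAP1 reached it in TGFβ1 replicate 2 but was at 2.72 in TGFβ1 replicate 1, below its control value of 3.19. For MAP4K4, a kinase upstream of JNK, and MICAL2, an actin-oxidising enzyme, only TGFβ1 replicate 1 was enriched, at 4.43 and 4.66 against 2.18 and 1.82 in the other TGFβ1 replicate. TRIB3, a pseudokinase of the stress response, had 1.23 and 2.39 against 3.16 and 4.22, and SLC16A1, the lactate transporter MCT1, had 2.12 and 2.51 against 3.20 and 3.31. UBA2, a subunit of the SUMO-activating enzyme, had 2.79 and 1.58 against 3.32 and 3.63, and NME3, a nucleoside diphosphate kinase, had 3.19 and 1.58 against 3.79 and 3.58. These 4 genes did not overlap between conditions as deposited, and with the library medians subtracted UBA2 and NME3 did. CSNK2B, the regulatory subunit of casein kinase 2, and MAP2, a microtubule-associated protein, did not either, with 3.04 and 2.91 against 4.08 and 3.50 and with 1.96 and 3.51 against 3.71 and 3.81, but both overlapped with the medians subtracted. FIBP, ASPH, STAM2, UQCR11, RHOQ and POLDIP2 overlapped between conditions. WDR6, the single gene of the control list only, had 3.19 and 3.85 in control and 2.94 and 1.14 with TGFβ1, at 409 to 506 nt.

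The 51 genes were chosen for a listed region near the 5′ end, so the following counts describe them and carry no test. All listed regions of the gene lay near its 5′ end for 19 of 24 genes in the control list and 36 of 50 in the TGFβ1 list. Of the 51 genes, 28 had no enriched cluster past 500 nt in any library. Among the 36 genes that could be compared in all 4 libraries, the highest fold lay near the 5′ end in each library for 18 and past 500 nt in each library for 9. LARP6, CCNI and GFPT1 were in the first group. NEU1, PPP1R12C and SRM were in the second.

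Gene groups of stellate cell and 5′ end biology were counted beside the 2.51% of all 4817 genes that had an enriched cluster near the 5′ end in any library. The groups are small and no test was run on their counts. Of 34 genes for matrix proteins with a tested cluster near the 5′ end, 1 was enriched in any library (AGRN, a heparan sulfate proteoglycan of basement membranes, with 1.60, 3.58, 2.00 and 3.89). None of 12 other collagen genes, 16 proteases and protease inhibitors of the matrix or 19 genes of TGFβ signalling was. Collagen-processing genes gave 2 of 24, PLOD3 and LOXL1, a lysyl oxidase that reached 4.43 in control replicate 2 only. Lysosomal genes gave 4 of 23, with the cathepsin CTSL, the saposin precursor PSAP and the galactosidase GLB1 beside NEU1, and subunits of the respiratory chain and ATP synthase gave 4 of 40, UQCR11, COX5B, NDUFB10 and ATP5F1E. Apart from NEU1, these 7 genes were enriched in at most 2 libraries. Secreted growth factors and their regulators gave 2 of 21, PCSK1N and IGFBP7. Chaperones and translocation factors of the endoplasmic reticulum gave 1 of 31, RRBP1, contractile and cytoskeletal genes 1 of 33, the actin-severing CFL1, and targets of AP-1, ATF and YAP 1 of 16, VGLL3. Of the La-related genes, 2 had a tested cluster and LARP6 was the enriched one.

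Genes whose mRNAs begin with a terminal oligopyrimidine tract (TOP), a C followed by pyrimidines through which LARP1 and mTORC1 control translation, were counted in the same way. Of 65 ribosomal protein genes, RPS6 alone was enriched, in TGFβ1 replicate 2 at 3.53, and of 13 other TOP genes none was, which is near the 2.51% of all genes. Initiation factors gave 1 of 18, EIF6, also in TGFβ1 replicate 2 only. A start with C and 4 pyrimidines was found in 5 of 98 enriched genes with sequence (5.10%) and in 243 of 3822 genes tested but not enriched (6.36%), while 1008 of 22198 annotated starts of protein-coding genes hold it (4.54%). The G and C content of the first 50 nt was likewise close, with a median of 72% (quartiles 66 and 78%) in the enriched genes and 70% (64 and 76%) in the others. The predicted folding energy of these 50 nt, by RNAfold, had a median of -17.05 kcal/mol (quartiles -20.7 and -13.5) in the enriched genes and -16.0 (-19.8 and -12.4) in the others. The ranges of both groups overlapped widely, and no test was run on them.

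Several matrix and secreted genes had many tested clusters near their 5′ end without enrichment. FN1, which encodes fibronectin, had 40 tested clusters over the 4 libraries, and its highest folds were 0.63, 1.35, 1.70 and 1.61. IGFBP3 had 23 such clusters and IGFBP4 had 21, both for secreted binding proteins of insulin-like growth factors. HTRA1, a secreted protease, LAMC1, a laminin chain, and LOX, the lysyl oxidase that crosslinks collagen, had 20 each. The highest fold among these 6 genes was 2.95, in HTRA1. None of the clusters of these genes passed both limits.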

How the data were processed

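LARP6 eCLIP tables of 4 immunoprecipitated libraries and 2 lists made from both replicates were used. The 4 input libraries were not analysed on their own. Per the submitters' processing notes, UMI-tools, cutadapt and STAR were used on GRCh38, with no versions stated. How peaks were called, normalised to input and joined over replicates is not given in the sources used here. None of the tables has a header, and the values of 1 deposited column were taken for log2 folds over input by the authors. Another deposited column was taken for the authors' −log10 p-value, with a top of 400. Both were used as deposited. They describe, rank and filter regions and carry no counts, so a high fold can rest on few reads.

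Genes and starts came from RefSeq tables of GRCh38.p14, which hold no exons. The strand of 20052 protein-coding genes was taken from the promoter table for 15841 and from the clusters for 1096 (at least 3 clusters, 80% on 1 strand), and 3115 without a strand could not be searched. Where both sources spoke, 5401 of 5455 genes had the same strand (99.0%). Clusters of 1 gene share their source, so conditions were compared over libraries, by exact permutation of the enriched share. The members and lists were chosen with earlier results of these data known. All 51 genes with a listed region were named. The rule for naming genes took LARP6, the 20 genes with the highest list fold, up to 6 genes per list without an enriched counterpart, 6 genes with the most tested clusters and none enriched, and up to 4 enriched members of each of 16 role lists. Values of further listed genes were added after they had been seen. Folding energy of the first 50 nt was also added after the data had been seen. Alternatives were other limits, windows and overlaps, each replicate left out, the replicate number as a block and, added after seeing the data, library medians subtracted. The code was tested on simulated data. Python 3.11.15, NumPy 2.4.6, pandas 2.3.3, SciPy 1.17.1, ViennaRNA 2.7.2 and matplotlib 3.10.9 were used.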

Additional observations from a re-analysis of the deposited data

How the results depend on the processing

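Counts moved with the limits. At a fold limit of 2, enriched clusters near 5′ ends numbered 95 in control replicate 2, 114 in TGFβ1 replicate 1 and 281 in TGFβ1 replicate 2, and the mean difference from the remainder of the same genes reversed to 0.0681 percentage points; the cause was not tested. At a limit of 4, control replicate 1 had 25, TGFβ1 replicate 1 had 40 and TGFβ1 replicate 2 had 83. With a window of 1000 nt, control replicates 1 and 2 had 77 and 88, and the control list gave 80 regions in 38 genes, 88.8% of them shared, against 100% shared with 250 nt. Keeping listed regions from a fold of 4 and a −log10 p of 5 upwards left 31 in 14 genes for control and 44 in 17 genes for TGFβ1, of which 84.1% were shared.

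With each replicate left out in turn, enriched clusters of the remaining library stood for the list. The TGFβ1 regions then ranged from 66 to 162, in 46 to 109 genes, with 34.0 to 62.9% shared, and the control regions were 83.6 to 97.9% shared. The largest TGFβ1 count and the lowest TGFβ1 share came without TGFβ1 replicate 1. With 1 value per gene in place of clusters, the difference between window and remainder was -6.87 percentage points, where the longer remainder has more clusters per gene. The exact permutation over 4 libraries gave p = 0.125, the smallest possible.

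With the median of all tested clusters subtracted, 141 genes overall and 2 of both lists had both TGFβ1 values below both control values. With the median of the 1413 genes subtracted, these were 269 and 4, and 5 of the 51 listed genes, while both TGFβ1 values were above in 221 overall and in 18 listed genes, against 29 as deposited. The replicate number as a block gave the same difference in enriched share, 0.839 points, with an exact sign-flip permutation p of 0.5. That is the smallest p that 2 blocks can give. The labels do not say what a number shares, and deviations of same-numbered libraries had a correlation of 0.04 over 1413 genes. Taking the mean of the clusters of a gene in place of the highest moved 40 of 94 gene values by more than the spread between replicates. A 1000 nt window moved 2 of the 94. A 250 nt window moved 14 and left 69 the same, and the remaining gene values could not be compared at that width. A planned feature, the hydropathy of the encoded N terminus, was not run, and first-50-nt features of listed genes are void because 78.4% of them, under 80%, had sequence.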
